A study of Mus musculus with 6 samples.

Results

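The immunoproteasome and peptide-loading genes were 9 genes: Psmb8, Psmb9, Psmb10, Psme1, Psme2, Tap1, Tap2, Tapbp and Erap1. They were taken by name, through Ensembl gene identifiers and GENCODE symbols, from tables of predicted enhancer-gene pairs of mouse oligodendrocyte precursor cells (OPCs), the dividing cells that give rise to myelinating oligodendrocytes. Of these 9, 7 were among the 32049 target genes listed in either table, 6 in each condition. Ctr-OPCs were kept in proliferation medium, and IFN-γ-OPCs received 100 ng/mL IFN-γ from 24 h after passaging, for 48 h per the study's methods. All cells were from pups at postnatal days 4 to 6, with the strain labelled C57BL/6j and the genotype Sox10-Cre/RCE. A green reporter is switched on in this cross by Cre under the Sox10 promoter, and so marks the whole oligodendrocyte lineage. Per the study's methods the Sox10:Cre parents were C57BL/6j and the RCE:loxP parents had a mixed C57BL/6xCD1 background. Several brains were pooled for each culture, and cells were purified either by the reporter or by CD140a, without a statement of which route each library had. H3K27ac HiChIP, which captures contacts of chromatin that carries this mark of active promoters and enhancers, was run on 6 libraries, 3 per condition. The contacts were joined with chromatin accessibility and H3K27ac coverage in the activity-by-contact (ABC) model.

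The deposited values were 1 table per condition, pooled over its 3 libraries, so no value has a replicate error, no test was possible and the depth behind the tables is unknown. In the model, an element is a stretch of open chromatin, its activity combines accessibility and H3K27ac, and its contact with a gene is read from the HiChIP map in bins of 5 kb. The gene total is the sum of activity times contact over all elements around a gene, its own promoter included. The ABC score of a pair is its product of activity and contact divided by that total, hence a share within the gene. Activity, contact and gene total are in arbitrary units. Pairs are listed from a score of 0.02 upward and only for genes whose promoter activity quantile, the rank of the promoter's activity among promoters from 0 to 1, was at least 0.4. Elements classed as promoters numbered 0 in both tables, so a gene that is not listed missed the quantile limit or had no pair from 0.02 upward with an element of another class. All 6 OPC markers were listed in both conditions, with promoter quantiles from 0.851 (Pdgfra) to 0.982 (Olig2) in Ctr-OPCs and from 0.815 (Pdgfra) to 0.994 (Olig2) in IFN-γ-OPCs. Of 6 microglia markers, 3 were listed in Ctr-OPCs with quantiles of 0.473 to 0.782, and 5 in IFN-γ-OPCs with quantiles of 0.471 to 0.825. Among the 3 listed in both, the quantile of Csf1r moved most, from 0.473 to 0.625. Aif1 and Tmem119 were the 2 listed in IFN-γ-OPCs only, and C1qa was listed in neither. Mature oligodendrocyte markers were listed for 2 of 3 genes in Ctr-OPCs against 3 of 3 in IFN-γ-OPCs, astrocyte markers for 2 of 3 in both and neuron markers for 3 of 3 in both. A larger number of responding cells and more mark per cell cannot be told apart in pooled cultures.

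Cells show fragments of their own proteins on MHC class I molecules. The proteasome cuts the proteins, and interferon-γ is known to swap its catalytic subunits for the immunoproteasome subunits encoded by Psmb8, Psmb9 and Psmb10. Psme1 and Psme2 encode the subunits of the PA28 activator, a cap that opens the proteasome. Tap1 and Tap2 form the transporter that carries peptides into the endoplasmic reticulum, Tapbp encodes tapasin, which holds class I molecules beside the transporter, and Erap1 encodes an aminopeptidase that trims the peptides there. Psmb9, Tap1, Psmb8 and Tap2 lie side by side in the MHC class II region of chromosome 17, over 28.6 kb from the start of Psmb9 to the end of Tap2. In GRCm38 they span chr17:34181987-34187764 (Psmb9, minus strand), chr17:34187553-34197225 (Tap1), chr17:34197721-34201454 (Psmb8) and chr17:34203527-34216321 (Tap2, all 3 on the plus strand). Tapbp is 272 kb away on the same chromosome (chr17:33915899-33929292). Psmb10 is at chr8:105935735-105938444, Psme1 at chr14:55578123-55581529 and Psme2 at chr14:55587441-55591113, with 12.99 kb between their starts, and Erap1 at chr13:74639568-74693201.

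Pairs of the members numbered 10 in Ctr-OPCs against 9 in IFN-γ-OPCs, where pairs of all target genes numbered 66637 against 71478. The median was 2 pairs per target gene in both. Since the score is a share of the gene total, a higher total can take a pair below the listing limit. Nothing further is read from the count. The chromosome 17 members had 6 pairs in each condition, and the other members had 4 and 3. With IFN-γ the paper reports more predicted contacts across Psmb9 to Tap2, seen in a view of the locus and not in this count. Psme1 was listed only in Ctr-OPCs and Psme2 only in IFN-γ-OPCs, where 36.6% of all target genes were listed in 1 table only. Tapbp and Erap1 were listed in neither. Within 50 kb of the Tapbp start, 0 elements were listed with any gene in Ctr-OPCs against 3 in IFN-γ-OPCs, the strongest with an activity of 0.724. Around Erap1 there were 0 in both. The pairs came from 7 elements in Ctr-OPCs against 5 in IFN-γ-OPCs, because neighbouring genes shared them. In Ctr-OPCs, 3 of these elements served a pair of members each. In IFN-γ-OPCs, 1 element served 4 members and 1 served a pair.

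What rose with IFN-γ at the chromosome 17 members was the gene total. It went from 1.66 in Ctr-OPCs to 2.59 in IFN-γ-OPCs for Psmb8, a 1.56-fold difference, and from 1.60 to 2.41 for Tap2, a 1.51-fold difference. Psmb9 and Tap1 start 211 bp apart, share a contact bin and had the same total, 1.59 in Ctr-OPCs against 2.15 in IFN-γ-OPCs, a 1.35-fold difference. On chromosome 8, the total of Psmb10 was 1.42 in Ctr-OPCs against 1.45 in IFN-γ-OPCs, a ratio of 1.02. Thus 4 of the 5 members with a total in both tables were raised by at least 25%, all 4 in the chromosome 17 cluster. Among all 20321 genes with both totals, 4.30% were raised that far. The 4 genes are neighbours with shared elements and bins and do not count as 4 separate observations. Of the 3 microglia markers with both totals, 1 was raised that far, P2ry12, from 0.342 to 0.488 or 1.43-fold, beside ratios of 1.07 for Csf1r and 0.921 for Cx3cr1. Of the 6 OPC markers, Ptprz1 was raised 1.27-fold, and the other 5 had ratios of 0.845 to 0.937. The 7 astrocyte, neuron and mature oligodendrocyte markers with both totals had ratios of 0.840 to 1.07. The part of other cells in the members' totals was not tested.

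Set against all genes, 0.423% had a larger log2 ratio than Psmb8, 0.576% than Tap2, 1.84% than Psmb9 and Tap1, and 30.5% than Psmb10. The median log2 ratio was 0.43 over the 5 members, 0.51 over the 4 on chromosome 17 and -0.07 over all genes. Across all genes, 59.7% of those changed by that fold in either direction were raised, and 83.8% after each table was divided by its median, with the same 4 members raised under both scalings. In IFN-γ-OPCs, 0.0940% of target genes had a larger total than Psmb8, where it had been 10.1% in Ctr-OPCs. Psme1, with a total of 1.12 in Ctr-OPCs, and Psme2, with 1.49 in IFN-γ-OPCs, had no counterpart to compare.

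**Figure D1:**
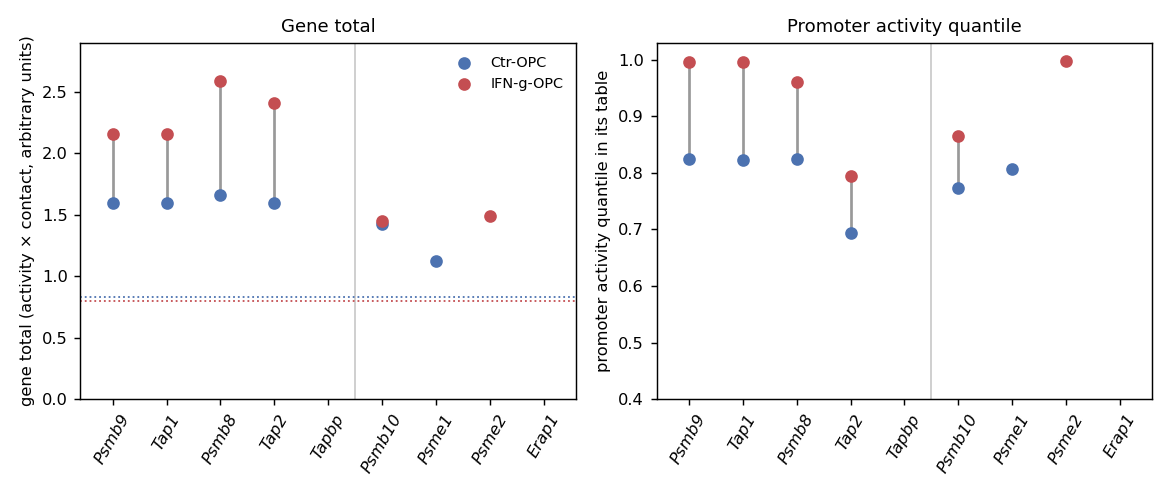
Gene total (left, activity times contact in arbitrary units) and promoter activity quantile (right, rank from 0 to 1, axis from the tables' minimum of 0.4) of each member in Ctr-OPCs (blue) and IFN-γ-OPCs (red, labelled IFN-g-OPC), 1 pooled value per point without error. Dotted lines mark the median total of all genes, 0.827 and 0.799. Chromosome 17 members are left of the vertical line, where 4 genes rise in both panels. Psmb10 goes from 1.42 to 1.45 in the left panel and from 0.773 to 0.865 in the right panel.

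**Figure D2:**
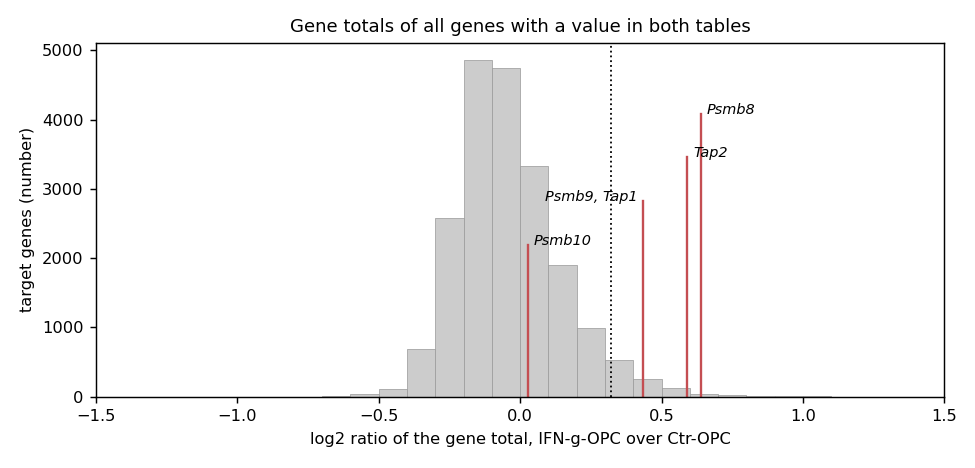
Histogram of the log2 ratio of the gene total, IFN-γ-OPCs over Ctr-OPCs, for 20321 genes (y axis, number of genes per bin, no error). Red lines mark the 5 members with both totals, and the dotted line marks a rise of 25%. Psmb10 lies at 0.03, inside the bulk of the genes, and the other 4 members lie from 0.43 to 0.64.

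Neighbouring genes that are not members had similar ratios. Of 3 other genes within 50 kb of Psmb8 with both totals, the long non-coding RNA gene Gm15821 went from 1.55 in Ctr-OPCs to 2.30 in IFN-γ-OPCs, and Gm20496, annotated antisense in the same place, from 1.51 to 2.27. The class II gene H2-DMb1 went from 1.55 to 1.91, a 1.23-fold difference that misses the limit. Around Psmb10, 7 other genes had log2 ratios between -0.18 and -0.02. Around Psme2, 7 other genes had log2 ratios between 0.03 and 0.20, with Irf9, a transcription factor of the interferon response, at the upper end and 0 raised. The chromosome 17 values were therefore those of a neighbourhood and not of the 4 members alone.

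The promoter quantile moved in the same direction for all 5 members listed in both tables, upward with IFN-γ, where 49.5% of all genes had a higher quantile in IFN-γ-OPCs. The chromosome 17 members are neighbours, so the 5 genes do not count as 5 separate observations. Tap1 went from 0.822 in Ctr-OPCs to 0.996 in IFN-γ-OPCs, and Psmb9 from 0.824 to 0.996. Psmb8 went from 0.824 to 0.960, Tap2 from 0.693 to 0.795 and Psmb10 from 0.773 to 0.865. In IFN-γ-OPCs, 143 of 26591 target genes ranked above Tap1 and 172 above Psmb9, against 6791 and 6706 of 25779 in Ctr-OPCs. Psme2, listed only in IFN-γ-OPCs, had a quantile of 0.998, with 55 genes above it. Psme1 had 0.806 in Ctr-OPCs. Over all genes in both tables, 2.85% had a larger change of quantile than Tap1, 2.95% than Psmb9, 5.17% than Psmb8, 8.59% than Tap2 and 9.85% than Psmb10. Of 5304 genes that began between the quantiles of Tap2 and Psmb9, 1.06% gained at least as much as Psmb10, which gained least of the 5 at 0.0913. Genes nearby that are not members moved too. Of the 3 around Psmb8, H2-DMb1 went from 0.675 to 0.817, Gm15821 from 0.692 to 0.761 and Gm20496 from 0.791 to 0.839. Changes of the 7 around Psme2 ranged from that of Rec8, 0.711 to 0.550, to that of Irf9, 0.694 to 0.874. The promoter itself is in none of the listed pairs.

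The listed enhancers made up a small part of each total. They held 7.68% of the total of Psmb8 in Ctr-OPCs against 8.37% in IFN-γ-OPCs, 7.998% and 9.24% for Tap2, and 2.49% and 2.94% for Psmb9 and Tap1. Over all genes the median was 7.51% in Ctr-OPCs against 7.91% in IFN-γ-OPCs. Psmb10 had the most, 14.6% and 11.4%. The remainder holds the gene's own promoter, any other element classed as a promoter, those of neighbouring genes among them, and every element below the score limit, which the tables do not separate. It accounted for 90.4% of the rise of the total at Psmb8, 88.3% at Tap2 and 95.8% at Psmb9 and Tap1. These shares depend on which elements each table lists, since the listed elements of the 2 tables were not the same for any of the 5 genes. Psmb9 and Tap1 had no listed element in common between the conditions, and Psmb8 and Tap2 had 1. Over the 2 elements of Psmb10 listed in both tables, the summed product of activity and contact was 0.154 in Ctr-OPCs against 0.165 in IFN-γ-OPCs, a ratio of 1.07.

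The element that served 4 members lay in intergenic DNA at chr17:34218623-34219122, 2.30 kb beyond the end of Tap2. Its activity was 0.593 in Ctr-OPCs against 3.78 in IFN-γ-OPCs, a 6.37-fold difference that ranked 3 among 19332 elements matched between the tables. The other 4 matched elements of the members had ratios between 0.505 and 1.20, so 1 of 5 was raised by at least 1.5-fold, where 9.37% of all matched elements were. Nothing is read from that count or rank, since the raised element served no member in Ctr-OPCs and came into the set through its pairs in IFN-γ-OPCs, where its activity was high. The median activity of all elements was 0.866 in Ctr-OPCs against 0.803 in IFN-γ-OPCs, a shift of -0.11 on the log2 scale, relative to which the ratios would be slightly higher. In IFN-γ-OPCs, 1.72% of elements were more active than this one. It was listed with 7 genes there, as many or more than which were listed for 3.70% of elements.

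Because this element had the largest rise in activity of the members' elements, its middle 300 bases are printed (GRCm38, plus strand, chr17:34218723-34219022). Capitals mark 2 motifs searched on both strands. One is the gamma-activated site TTCNNNGAA (GAS), a motif named for the response to IFN-γ, and the other is the core GAAANNGAAA of the interferon-stimulated response element (ISRE), bound by IRF factors.

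Element beyond Tap2: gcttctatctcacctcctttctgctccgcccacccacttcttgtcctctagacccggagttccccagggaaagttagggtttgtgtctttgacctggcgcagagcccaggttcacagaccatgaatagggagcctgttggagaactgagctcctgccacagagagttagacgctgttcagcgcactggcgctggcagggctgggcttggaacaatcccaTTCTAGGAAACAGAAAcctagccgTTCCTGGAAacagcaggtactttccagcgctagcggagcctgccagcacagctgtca

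The first run of capitals joins a GAS (TTCTAGGAA, chr17:34218942-34218950) and an ISRE core (GAAACAGAAA, chr17:34218948-34218957) that overlap by 3 bases. The next run is a further GAS (TTCCTGGAA, chr17:34218966-34218974). The AP-1 motif TGANTCA and the longer ISRE form GAAANNGAAANNGAAA were not matched. An ISRE core was found in 9.57% and a GAS in 15.7% of the 22029 elements of 500 bp in IFN-γ-OPCs. Among the 1812 matched elements raised by at least 1.5-fold, 18.98% held an ISRE core, 1.05% the longer ISRE form, 30.2% a GAS and 28.7% the AP-1 motif, against 8.33%, 0.274%, 18.2% and 19.03% of all matched elements. All 4 shares were larger among the raised elements, and these elements differ in length. A match is a run of letters and does not show binding.

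The contact of this element fell with distance from the gene's start. In IFN-γ-OPCs it was 0.0899 for Gm15821 at 4.41 kb and 0.0411 for Gm20496 at 13.4 kb. For the members it was 0.0235 for Tap2 at 15.3 kb, 0.0220 for Psmb8 at 21.2 kb and 0.0155 for both Psmb9 and Tap1 at 31.1 and 31.3 kb. H2-Ob, a class II gene on the other side at 20.0 kb, had a lower contact than Psmb8 at a similar distance, 0.00947. The members' contacts were 0.505 to 0.624 of the value that a power law of distance gives, near the median of 0.486 over all pairs in IFN-γ-OPCs. Of the members, Tap2 had the highest score with it (0.0388), followed by Psmb8 (0.0338) and by Psmb9 and Tap1 (0.0294 each). At the limit of 0.05 that the study used, the element would serve 0 members, and its pairs with Gm15821 (0.150) and Gm20496 (0.0704) would be left. The element held 9.45% to 11.5% of the rise of each member's total if its own part in Ctr-OPCs is set to 0, which makes these shares upper limits.

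**Figure D3:**
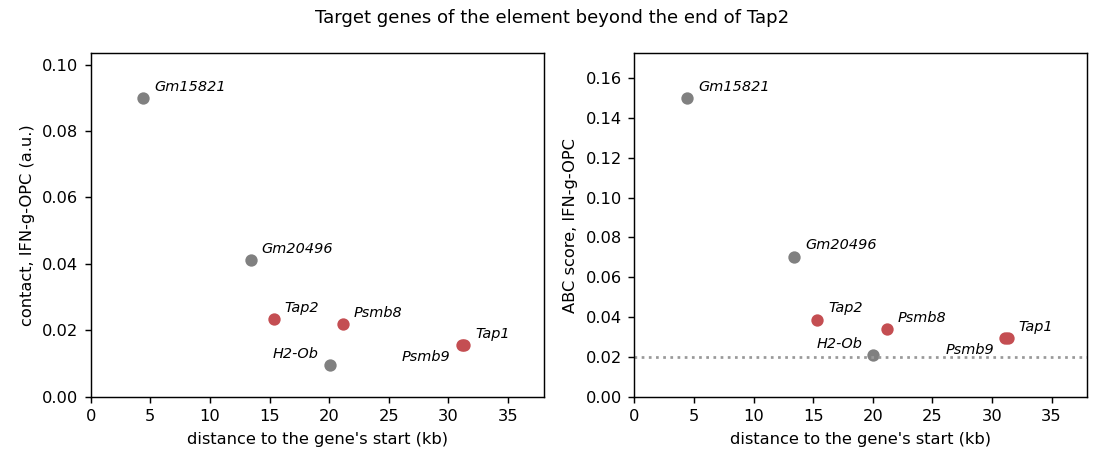
Contact (left, arbitrary units) and ABC score (right, share of the gene total) of the element beyond the end of Tap2 with its 7 target genes in IFN-γ-OPCs, against the distance to each gene's start in kb. Members are red and other genes grey, 1 pooled value per point without error, and the dotted line marks the lowest listed score, 0.02. The 4 members lie between 15.3 and 31.3 kb, with scores from 0.0294 to 0.0388.

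In Ctr-OPCs the same element was listed with Gm15821 alone, at a contact of 0.0604 and a score of 0.0236. In IFN-γ-OPCs that pair had a contact of 0.0899 and a score of 0.150. For this pair the activity ratio was 6.37 and the contact ratio, with the model's pseudocount, was 1.48. The members' pairs with the element had no contact value in Ctr-OPCs. Had their contacts been those of IFN-γ-OPCs, the Ctr-OPC activity and totals would have given scores of 0.00624 for Psmb9 and Tap1, 0.00827 for Psmb8 and 0.00918 for Tap2, all under the listing limit. To be listed in Ctr-OPCs, the pairs would have needed a contact, pseudocount included, of at least 0.0537 for Psmb9 and Tap1, 0.0561 for Psmb8 and 0.0539 for Tap2. Their absence from the Ctr-OPC table therefore does not tell whether their contact was lower there.

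A second chromosome 17 element was shared by Psmb8 and Tap2 in both conditions. It lay in the first part of Tap2, over an annotated UTR of that gene and an intron of Gm20496, at chr17:34204335-34204834 in Ctr-OPCs and chr17:34204285-34204784 in IFN-γ-OPCs. The activity there was 1.26 in Ctr-OPCs against 1.52 in IFN-γ-OPCs, a ratio of 1.20. The contact was 0.0707 in Ctr-OPCs against 0.0841 in IFN-γ-OPCs, the same number for both genes. The Tap2 start lies in the same 5 kb bin as the element and the Psmb8 start in the next, so Tap2 has no separate contact value. The product of activity and contact was 1.42 times as large in IFN-γ-OPCs, while the totals were 1.56 and 1.51 times as large. The scores were therefore not higher, at 0.0545 in Ctr-OPCs against 0.0499 in IFN-γ-OPCs for Psmb8, and 0.0567 and 0.0537 for Tap2. A share within the gene can thus be lower while the activity and contact given for the pair are higher.

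This element held 2 ISRE cores and no GAS, and both cores lay inside the element of either condition. They are shown with 10 bases on each side, in capitals on the plus strand, because 2 of the 5 elements of the members in IFN-γ-OPCs held this motif, as did 10.9% of all elements there. The other is the one printed above, which came into the set through its pairs in IFN-γ-OPCs. The site positions are chr17:34204334-34204363 and chr17:34204491-34204520.

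Tap2 site 1: tttgttttttTTTCCTTTTCaaagcatctc

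Tap2 site 2: gcagtgaagtGAAAGCGAAAgccgcgggac

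Site 1 reads as the motif on the minus strand and site 2 on the plus strand. An ISRE core was found in 5.86% of the elements of 500 bp in Ctr-OPCs, and in 1 of the 6 elements of that length of the members there.

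Pairs with 2 further chromosome 17 elements were listed in Ctr-OPCs only. The first was at chr17:34121162-34121661, over a UTR of Brd2 and an intron of H2-DMa, 66.1 kb from Tap1 and 66.4 kb from Psmb9. With an activity of 4.68 it was more active than 98.95% of elements in Ctr-OPCs and had 13 target genes, and it was the only listed element of Psmb9 and Tap1 there, with a contact of 0.00724 and a score of 0.0249 for each. In Ctr-OPCs its scores were highest with H2-DMa (0.133), Brd2 and CR974462.3 (0.131 each). It was listed with no gene in IFN-γ-OPCs, these 3 included. Since neither table holds an element classed as a promoter, a change of its class would leave it unlisted, and the tables do not tell whether that was so. For Psmb9 and Tap1, an unchanged product over the IFN-γ-OPC total would have scored 0.0184, under the listing limit. The other was at chr17:34196625-34197124, over a coding exon and UTR of Tap1, with an activity of 0.517 and scores of 0.0223 for Psmb8 and 0.0232 for Tap2. An unchanged product would have scored 0.0143 and 0.0154 in IFN-γ-OPCs. For these 4 pairs the score would thus have been below 0.02 had the product stayed the same. What the product was in IFN-γ-OPCs is not known.

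**Figure D4:**
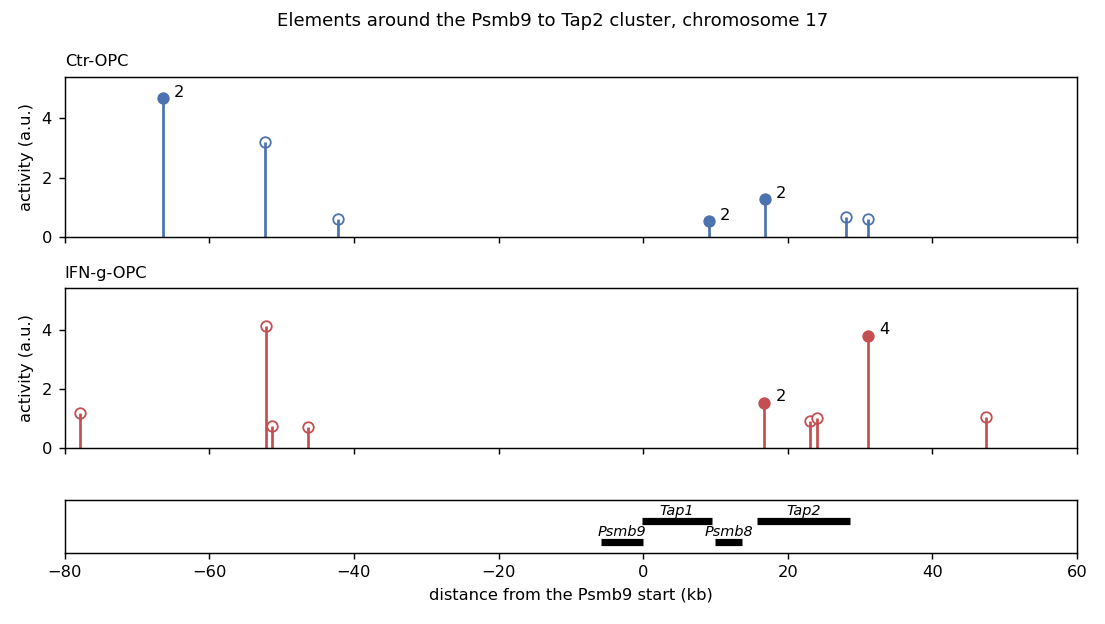
Activity (arbitrary units) of the elements listed with any gene around the chromosome 17 cluster in Ctr-OPCs (top) and IFN-γ-OPCs (middle, labelled IFN-g-OPC), against the distance in kb from the Psmb9 start, with the 4 genes drawn below as bars. Filled points are elements listed for members, the digit gives the number of members, and there is 1 pooled value per point without error. The element at 31.1 kb stands at 0.593 and serves no member in Ctr-OPCs, and stands at 3.78 and serves 4 in IFN-γ-OPCs, while the element at -66.4 kb is drawn in Ctr-OPCs only.

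Psmb10 on chromosome 8 had 3 listed elements in Ctr-OPCs against 2 in IFN-γ-OPCs. The strongest lay inside the gene itself, over a coding exon, at chr8:105936926-105937425 in Ctr-OPCs and chr8:105936994-105937657 in IFN-γ-OPCs. The activity there was 2.00 in Ctr-OPCs against 2.25 in IFN-γ-OPCs, and its score was 0.0797 and 0.0871. Its contact with Psmb10 was 0.0553 and 0.0548, the same as with the neighbouring gene Lcat. A further element over a UTR of Pskh1, 7.63 kb away in Ctr-OPCs, had an activity of 1.13 in Ctr-OPCs against 1.02 in IFN-γ-OPCs and scores of 0.0287 and 0.0269. The third, at chr8:105935945-105936444, had an activity of 0.937 and a score of 0.0372 in Ctr-OPCs and was listed with no gene in IFN-γ-OPCs, although an unchanged product would have scored 0.0366 there. None of these elements held an ISRE core, a GAS or an AP-1 match. The middle 300 bases of the strongest in IFN-γ-OPCs are shown for contrast with the element beyond Tap2 (GRCm38, plus strand, chr8:105937176-105937475), and no letters are in capitals because no motif was matched.

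Element in Psmb10: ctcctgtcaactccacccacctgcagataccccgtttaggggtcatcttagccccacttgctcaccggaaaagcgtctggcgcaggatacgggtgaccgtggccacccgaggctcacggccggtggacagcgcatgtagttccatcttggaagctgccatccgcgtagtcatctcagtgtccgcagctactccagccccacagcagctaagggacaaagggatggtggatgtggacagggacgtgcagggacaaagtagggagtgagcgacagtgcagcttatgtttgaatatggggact

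Contact could be compared at only 4 matched pairs of the members. The log2 ratio was 0.25 for the 2 pairs of the element in Tap2, which are a single contact value. It was 0.08 and -0.01 for the 2 pairs of Psmb10, with a median of 0.16 over the 4 pairs and 0.05 over all 29748 matched pairs. The -0.01 belongs to the element inside Psmb10, which lies in the same 5 kb bin as the Psmb10 start. Its contact values were those of Lcat, whose start lies in the next bin. Of the 4 pairs, 0 had a contact raised by at least 25%, against 26.5% of all matched pairs. These contacts are too few to call level or changed. The labels name a single contact map for all libraries, but the contact values of the tables differed, as these pairs show.

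The PA28 genes on chromosome 14 were each listed in 1 condition. Psme1 had a pair in Ctr-OPCs with an element of 1733 bp over a coding exon and UTR of Dcaf11 (chr14:55568484-55570216), with an activity of 0.990, a contact of 0.0281 and a score of 0.0259. In IFN-γ-OPCs the overlapping element was 768 bp long with an activity of 0.4996, a ratio of 0.505, and was listed with 2 other genes. The longer Ctr-OPC form held 2 ISRE cores and 1 GAS, and the shorter form 1 ISRE core and 0 GAS. Psme2 had a pair in IFN-γ-OPCs with an element in Rnf31 (chr14:55595972-55596471), with an activity of 1.04, a contact of 0.0629 and a score of 0.0448. Nothing was listed at that place in Ctr-OPCs. The element was also listed for Irf9 with a score of 0.0470, for Rnf31 with 0.0448 and for Emc9 with 0.0208. Irf9 encodes the IRF subunit of the complex that reads the ISRE. The element held none of the motifs, and its middle 300 bases over a coding exon of Rnf31 are shown because it is the one element that appeared together with a member in IFN-γ-OPCs (GRCm38, plus strand, chr14:55596072-55596371).

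Element in Rnf31: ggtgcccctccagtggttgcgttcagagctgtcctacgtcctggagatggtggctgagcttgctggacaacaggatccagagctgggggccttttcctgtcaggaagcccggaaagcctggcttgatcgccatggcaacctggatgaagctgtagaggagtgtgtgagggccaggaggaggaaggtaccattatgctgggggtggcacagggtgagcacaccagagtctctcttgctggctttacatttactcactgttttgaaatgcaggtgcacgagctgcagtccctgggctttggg

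The members' promoters were searched for the same motifs in RefSeq windows of 300 bases (GRCm38.p6), 250 before to 50 after each start, which were given for 8 of the 9 members in 9 windows. RefSeq and GENCODE place the starts between 3 and 3579 bp apart, the most for Tapbp. An ISRE core was found in the windows of Psme1 and Erap1, against 3.44% of all 32851 windows, and a GAS in that of Psmb8, against 8.30%. AP-1 and the longer ISRE form were found in 0 of the 9 windows, against 7.81% and 0.116%. The windows of Psmb9, Tap1, Psmb10, Psme2 and Tapbp held none of these letters, which says nothing on what binds there. The 3 sites are shown with 30 bases each, on the plus strand and in the direction of the gene, as the members' only promoter matches. They lie at chr14:55578493-55578522 (Psme1, centred 14 bases after the RefSeq start), chr13:74639839-74639868 (Erap1, centred 1 base after it) and chr17:34198088-34198117 (Psmb8, centred at -93, upstream of it). The GENCODE starts of Psme1, Erap1 and Psmb8 are 371, 285 and 474 bp from the RefSeq starts. By the GENCODE spans given above, all 3 sites lie inside the genes.

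Psme1 site: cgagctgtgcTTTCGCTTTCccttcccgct

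Erap1 site: ccaccttcacTTTCACTTTCggtcccgggc

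Psmb8 site: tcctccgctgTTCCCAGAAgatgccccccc

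In Psme1 and Erap1 the capitals read as the ISRE core on the minus strand. Neither gene has a promoter quantile in the IFN-γ-OPC table.

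The rest of the pathway gave a background for the members. Of 53 genes in 8 lists of proteasome, peptide-trimming, class I loading and regulator genes, 28 had a total in both tables, and 0 were raised by at least 25% or lowered by the same fold, against 4.30% raised and 2.91% lowered among all genes. Their median log2 ratio was -0.05. For the constitutive catalytic subunits, which the immunoproteasome subunits replace, 2 of 3 had both totals, with log2 ratios of 0.01 and 0.05. The other 20S subunits had 6 of 11, with ratios from -0.20 to 0.30, and the 19S cap 12 of 18, from -0.18 to 0.29. The assembly factors had 2 of 5, from -0.10 to 0.05, the other activators and inhibitor 1 of 3, at -0.08, and the other trimming peptidases 3 of 5, from -0.12 to 0.15. Among the other loading and folding genes 2 of 5 had both totals, Tapbpl, which encodes a tapasin relative, and B2m, the light chain of class I. They are named after their values were seen, because their promoter quantiles went from 0.802 in Ctr-OPCs to 0.925 in IFN-γ-OPCs and from 0.846 to 0.963, while their log2 totals were 0.16 and 0.09. Also named after their values were seen are 2 regulators. Irf1, an interferon-induced transcription factor, was listed in IFN-γ-OPCs only, with 7 pairs and a quantile of 0.992, and so was Nlrc5, the class I transactivator, with 1 pair and 0.953.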

How the data were processed

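Per the labels and the study's methods, reads of 6 H3K27ac HiChIP libraries were aligned to mm10 with HiC-Pro, and the authors ran the ABC model on them with ATAC-seq and H3K27ac CUT&RUN under default settings for activity. Tool versions are not given in the sources used here. The deposited activity is a signal, the deposited ABC score is a fraction, the promoter quantile is a rank from 0 to 1, and the deposited contact, contact with pseudocount, power-law contact, power-law score and product are scores with no fixed range. How the authors scaled the conditions to each other is not stated. The shorter deposited files repeat the scores of the full tables. The study used scores above 0.05.

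Gene totals were recovered as product over score. Elements were matched by mutual best overlap of at least 1 bp. Raised means at least 25% for totals and contact and 1.5-fold for activity. Symbols came from GENCODE M21, sequences from RefSeq GRCm38.p6, and positions are 1-based. Printed windows are the 300 bases with the most ISRE and GAS matches, nearest the middle, without annotated UTR. Python 3.11.15, pandas 2.3.3 and NumPy 2.4.6 were used, and the procedures were tested on simulated data. Members and lists were chosen with earlier results of these data known. Named were all members, up to 5 genes sharing most elements with them, list genes past 1.5-fold, and each member's top element. Other genes named, among them markers, neighbours and list genes, were chosen after their values were seen. The values of 1 listed regulator gene are not reported here. No groups of samples were compared by a test.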

Additional observations from a re-analysis of the deposited data

How the results depend on the processing

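No paired analysis was possible because there is only 1 pooled table per condition, and no library could be left out. Above a score of 0.05 the members' pairs numbered 3 in Ctr-OPCs against 2 in IFN-γ-OPCs, and above 0.1 there were 0 in both. At 0.05 the element beyond Tap2 served 0 members, the chromosome 17 members had 2 and 1 pairs and the other members 1 and 1. With 1.5-fold for a raised total, 2 members were raised, Psmb8 and Tap2, against 0.615% of all genes. Dividing totals by each table's median left 4 raised, against 6.27% of all genes. Sums over the listed pairs or the remainder alone also gave 4, but they cover different elements in the 2 tables and are no check on the totals. For Psmb10 the log2 ratio of the listed sums was reversed, to -0.33, with 3 elements in Ctr-OPCs against 2 in IFN-γ-OPCs.

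The median log2 activity of 5 matched elements, 0.17, became 0.22 with 50% reciprocal overlap and for elements above 0.05, and 0.28 after division by the median. Chosen after seeing the data, it was 0.012 over the 4 elements listed for a member in Ctr-OPCs, which leaves out the one beyond Tap2, and 0.17 over the 3 listed for a member in both tables. The median log2 contact over the 4 matched pairs, 0.16, was 0.16 as deposited and 0.13 after division. These pairs held 3 distinct contact values in Ctr-OPCs. Of the 28 list genes 2 rather than 0 were raised by 25% after division, Psma2 and Psmd14, a share near the 6.27% of all genes. The difference in log2 total between the chromosome 17 members and Psmb10, 0.49, is the same by construction after scaling, which cancels, and without Tapbp, which has no total. A score limit and unknown depth bound what any absent pair can tell.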
